A study of Homo sapiens with 6 samples.

Results

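MicroRNAs are made and act through a short chain of proteins, and 9 genes of that chain are described here by the N6-methyladenosine (m6A) peaks on their RNA. The genes were TNRC6A, TNRC6B and TNRC6C, AGO1 and AGO2, DICER1, DROSHA and DGCR8, and CNOT1. The data are the deposited peaks whose centre lies in a fixed span of each gene on the same strand, in hg19 coordinates counted from 1. That gave 82 of 61147 peaks. Peaks of different lists that share at least 1 base on a strand were merged, which gave 38 regions of 25737.

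All samples were wild-type HEK293T, an established human line of embryonic kidney origin with SV40 large T antigen, and the labels name no treatment. Methylated RNA immunoprecipitation sequencing (MeRIP-seq) pulls down RNA fragments with an antibody to m6A and sequences them (IP) beside RNA that was not pulled down (input). The 6 libraries were the IP and input of 3 repeats, MeRIP 1, 2 and 3, made from total RNA after removal of ribosomal RNA. Each repeat has 1 list of peaks, with 21286, 19851 and 20010 peaks, and the names of the lists carry the words mRNA and m6A. No group of other cells or treatment stands against the repeats. Nothing in the labels ties the repeats to separate cultures, and the spread between them may therefore be technical. Read depth is unknown from peak lists, and a peak also needs its RNA to be present, so less RNA and less m6A cannot be told apart.

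DROSHA, a nuclear ribonuclease, and its RNA-binding partner DGCR8 cut primary microRNA transcripts into hairpins, and DICER1 trims these to the mature duplex. An Argonaute protein such as AGO1 or AGO2 takes up a strand and pairs it with target mRNAs, and AGO2 can also slice a well matched target. TNRC6 proteins, also called GW182 proteins, bind Argonaute and recruit the CCR4-NOT deadenylase, whose scaffold is CNOT1, and the poly(A) tail of the target is then shortened. The m6A mark is written on mRNA mostly by METTL3 with METTL14, and METTL16, the enzyme in the title of the series, methylates a separate set of RNAs.

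DICER1 and DGCR8 also carry microRNAs inside their own genes. The RefSeq tables of GRCh38.p14, another build than that of the peaks, hold 5 mature microRNAs inside these genes on their strand and none inside the other members. They are shown because DROSHA with DGCR8 is known to cut hairpins in DGCR8 RNA itself, and because they lie in the same genes as the m6A peaks. Bases 2 to 8, the seed that pairs with targets, are in capitals.
hsa-miR-3618: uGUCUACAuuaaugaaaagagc
hsa-miR-1306-5p: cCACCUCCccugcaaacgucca
hsa-miR-1306-3p: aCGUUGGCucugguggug
hsa-miR-3173-5p: uGCCCUGCcuguuuucuccuuu
hsa-miR-3173-3p: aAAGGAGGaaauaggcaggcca
The first 3 lie in DGCR8 on chromosome 22, plus strand, between 20085797 and 20086129 of GRCh38.p14. The other 2 lie in DICER1 on chromosome 14, minus strand, between 95137923 and 95137982. All 5 have different seeds.

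Peaks were found on all 9 genes, and 8 of them had a region in all 3 lists. Of the 38 regions, 20 were in all 3 lists (52.6%, 95% Wilson interval 37.3 to 67.5%), against 59.3% of all regions of the series. Another 4 were in 2 lists (10.5%, interval 4.17 to 24.1%, series 17.9%). The remaining 14 were in 1 list (36.8%, interval 23.4 to 52.7%, series 22.8%), and AGO2 held 6 of them. Intervals here cover counting error only, and regions of 1 gene share their RNA. The genes were chosen with earlier results known, so the intervals serve as description and not as a test against the series. The TNRC6 genes held 18 of the regions and 12 of the 20 in all 3 lists. The Argonautes held 11 and 4, the processing enzymes 8 and 3, and CNOT1 1 and 1. DROSHA was the exception, with 3 regions and none in all 3 lists. No peak on the opposite strand had its centre in any of the spans.

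**Figure D1:**
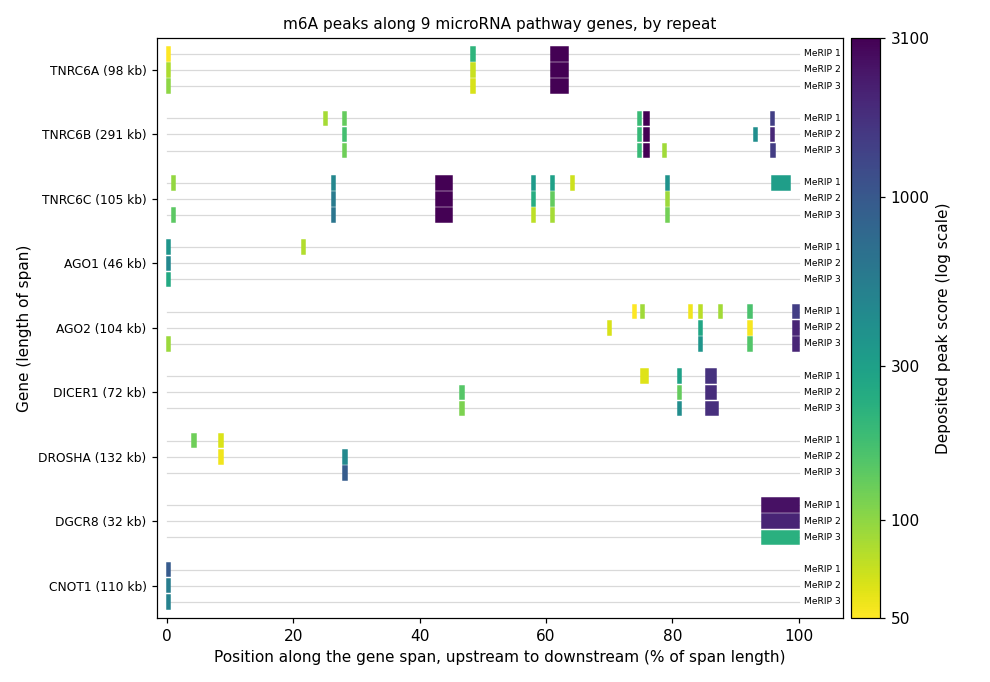
Peaks of each list (rows MeRIP 1 to 3) along the span of each gene, from its upstream to its downstream end in percent of the span, coloured by the deposited score on a log scale. Narrow peaks are drawn at a minimum width. The darkest blocks are the 3 TNRC6 regions at a score of 3100. AGO1 and CNOT1 have their 1 recurrent region at the upstream end. DGCR8 has its own at the downstream end, and AGO2 has its strongest of 3 recurrent regions there.

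Each peak carries a score that the authors deposited. Its lowest value is 50, and 10925 peaks of the series stand at or above 3100, a value that so many peaks share that it was treated as a ceiling. Such values look like a log-transformed p-value from a peak caller, although the files have no header to say so, and a ratio of scores is no fold of methylation. Member peaks were narrower and scored lower than the peaks of the series. Their median score was 200.2, 270.5 and 224 in MeRIP 1, 2 and 3, against 419.9, 422 and 443 for all peaks. On the log2 scale the median was 7.84 ± 0.22 (SD, n = 3 lists) for members and 8.74 ± 0.043 for all peaks. The median width was 225.5 ± 21.7 bp against 429.5 ± 13.6 bp. These are descriptions of 9 chosen genes and were given no test.

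The TNRC6 scaffolds each had 1 very strong and wide region, alike in all 3 genes. In TNRC6A it lay on chromosome 16 at 24800553 to 24803138, in TNRC6B on chromosome 22 at 40660692 to 40663040, and in TNRC6C on chromosome 17 at 76044926 to 76047538, all on the plus strand. The score was 3100 in every list for each of them. No other member region reached the ceiling, so 3 of 20 member regions in all 3 lists were at the ceiling throughout, against 18.9% in the series. Among regions of 2000 to 3000 bp in all 3 lists, 37.5% of the series were at the ceiling in every list.

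Widths of these regions were 2586, 2349 and 2613 bp. Both edges of each one were identical in the 3 lists. Such edges were common in the series, in 72.7% of regions in all 3 lists with 1 peak per list. Whether edges were set by annotation or by the signal was not tested. All 3 widths are whole multiples of 3, equal to 862, 783 and 871 codons, while 34.4% of identical-edge regions over 2000 bp in the series have such a width. They made up 81.7%, 56.9% and 57.4% of all peak bases of TNRC6A, TNRC6B and TNRC6C. In width they stood near the top of the series: 7.39%, 9.12% and 7.20% of the regions in all 3 lists were wider. TNRC6 genes are known for a long internal exon that codes for much of the glycine-tryptophan-rich, Argonaute-binding part. Exons were not located here, since no hg19 annotation was used.

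A second, smaller region preceded the wide one in every TNRC6 gene. It measured 426 bp in TNRC6A, 342 bp in TNRC6B and 327 bp in TNRC6C, again whole multiples of 3, with 142, 114 and 109 codons. The gap to the wide region was 11.9 kb, 2.51 kb and 17.0 kb, so that the sizes of the pair were more alike between the paralogues than their spacing. Scores of this region differed between genes. TNRC6A (24788254 to 24788679) had 213, 71.2 and 64.1 in MeRIP 1, 2 and 3. TNRC6B (40657836 to 40658177) had 188, 197 and 191. TNRC6C (76027597 to 76027923) had 459.6, 563 and 619. TNRC6C was thus above TNRC6B in each list, while TNRC6A was above TNRC6B in MeRIP 1 and below it in the other lists. Over all members with identical edges, 10 of 18 widths were divisible by 3 (series 37.9%). Those 10 include the wide region and the smaller one of every TNRC6 gene, so the count is not separate from the widths above.

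**Figure D2:**
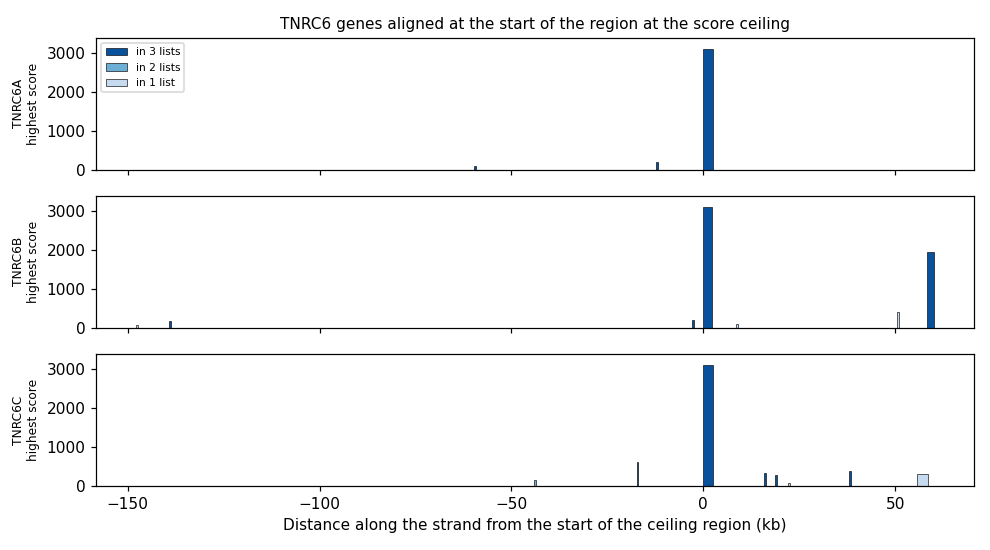
Regions of TNRC6A, TNRC6B and TNRC6C placed by their distance along the strand, in kb, from the start of the region at the score ceiling. Bar height is the highest score over the lists and shade the number of lists, and narrow regions are drawn at a minimum width. In all 3 genes a smaller region in all 3 lists comes directly before the tall one, while the downstream ends differ: TNRC6B has a region of up to 1943, TNRC6C one of 313 in 1 list, and TNRC6A none.

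Beyond this pair the paralogues differed. TNRC6A had only 1 more region, at 24741016 to 24741167 at the upstream end of its span, with scores of 50.5, 83.1 and 101.5. TNRC6B had a strong region towards its downstream end, at 40718858 to 40720696, with 1441, 1943 and 1497. Its upstream edge was the same in each list, while the peaks were 866, 860 and 1839 bp wide, so the downstream edge was free. A narrow region of TNRC6B at 40521776 to 40521866 held 132, 171 and 125. At 40711287 to 40711511 a peak of 411 was listed in MeRIP 2 alone. The most upstream region, at 40513059 to 40513132, had 86.6 in MeRIP 1 alone, and the remaining one had 90.5 in MeRIP 3 alone.

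TNRC6C held 8 regions, 5 of them in all 3 lists. Downstream of its wide region, 3 narrow regions of 216, 167 and 241 bp were in all 3 lists and scored highest in MeRIP 1. The first (76060803 to 76061018) had 327, 236 and 75.0, the second (76063838 to 76064004) 291, 136 and 86.7, and the third (76082934 to 76083174) 374, 91.8 and 121. Of these, the first had the widest ratio of scores in TNRC6C, 4.36. A wide region near the downstream end, 2836 bp at 76100566 to 76103401, was listed in MeRIP 1 alone with a score of 313. Such a case was uncommon, since 89 of 5499 peaks of 2000 bp or more in the series (1.62%) were in 1 list alone, with a median score of 200.5. A 24 bp region at the upstream end (76001137 to 76001160) had 97.8 in MeRIP 1 and 141 in MeRIP 3.

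The boundary of the TNRC6C span leaves out a very strong neighbour. A region of 102 bp at 76000249 to 76000350 on the plus strand overlaps the start of the span, at 76000310, but its centre lies outside. It had 2447, 3100 and 3100 in MeRIP 1, 2 and 3 with identical edges, and it is the only region that touches a span without counting as a member. Had any overlap been enough, TNRC6C would hold the region with the next highest lowest score after the 3 at the ceiling.

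**Figure D3:**
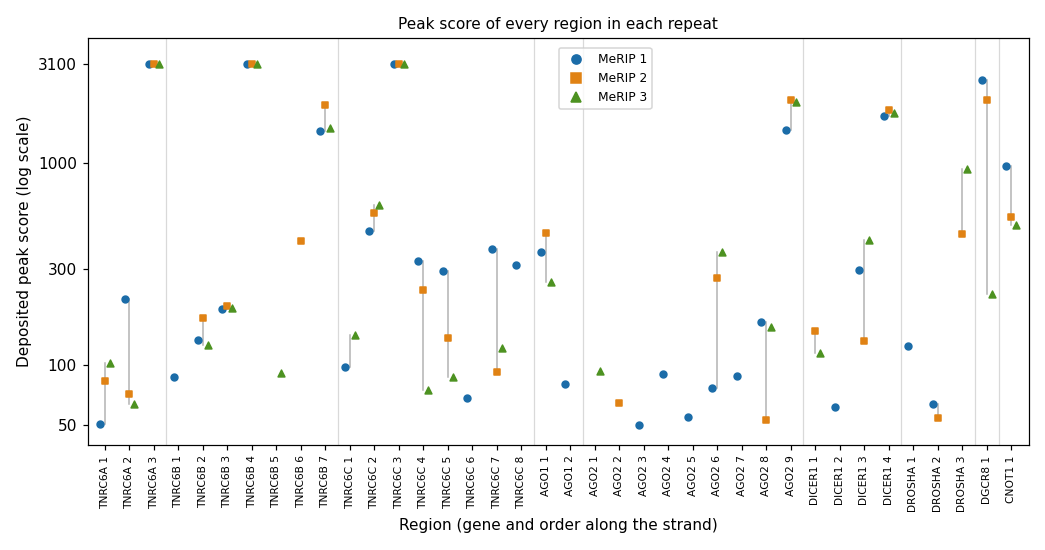
Deposited peak score, on a log axis, of each of the 38 regions in MeRIP 1 (circles), MeRIP 2 (squares) and MeRIP 3 (triangles), ordered along the strand within each gene. A grey line joins the lowest and the highest list, and a missing symbol means no peak in that list. Regions in 1 list sit mostly under 100, and DGCR8 has the longest line, from 224 to 2589.

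AGO2, the slicing Argonaute, had the strongest of its 3 recurrent regions at the downstream end of its span. At 141541264 to 141542251 on chromosome 8, minus strand, a peak of 988 bp scored 1470, 2067 and 2023 in MeRIP 1, 2 and 3. That is 10.84 ± 0.28 on the log2 scale (SD, n = 3 lists), with the same edges in every list. The other 2 regions of AGO2 in all 3 lists were weak and uneven. The one at 141557567 to 141557726 had 76.7, 270.5 and 362, so that MeRIP 1 was the lowest by far and the ratio of highest to lowest was 4.71. The one at 141549419 to 141549553 had 164, 53.1 and 153, with MeRIP 2 the lowest.

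AGO2 also held 6 regions in 1 list, more than any other member. Their scores ran from 50.3 to 93.5, with a median of 76.2, and 4 of them came from MeRIP 1. The most upstream, 63 bp at the first bases of the span (141645584 to 141645646), had 93.5 in MeRIP 3. Among all 14 member regions in 1 list, 11 scored under 100 (series 58.0%) and 10 came from MeRIP 1 (series 45.9%). Member peaks under a score of 200 were in all 3 lists in 21 of 39 cases (series 47.2%), and those of 200 or more in 39 of 43 (series 89.9%). In both score classes the members' recurrence was near that of the series.

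AGO1, the paralogue, had 1 recurrent region, and it lay at the upstream end of its span. At 36348810 to 36349047 on chromosome 1, plus strand, 10 bases from the upstream end of the span, a peak of 238 bp scored 362, 452 and 257. These values were within 1.76-fold of one another. A second region at 36358719 to 36358879 was listed in MeRIP 1 alone with 80.1. No peak lay in the 36332 bases downstream of it in the span, where AGO2 has its strongest region.

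DICER1, which trims hairpins to mature microRNAs, had a strong region with nearly equal scores in all 3 lists. At 95561692 to 95563050 on chromosome 14, minus strand, it scored 1723, 1840.3 and 1786, or 10.80 ± 0.048 on the log2 scale. The ratio of highest to lowest was 1.07, and 99.1% of the series' regions below the ceiling had a ratio at least as large. The peaks were 1085, 1106 and 1359 bp wide, with the same upstream edge at 95563050 and a free downstream edge. DICER1 and TNRC6B held the only 2 regions in all 3 lists whose edges differed: the other 18 of 20 had identical edges in every list (series 72.7%).

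The remaining regions of DICER1 were weaker. At 95566117 to 95566272 the scores were 296, 132 and 414, with MeRIP 2 the lowest. A region of 473 bp at 95590533 to 95591005 had 147 in MeRIP 2 and 114 in MeRIP 3 and no peak in MeRIP 1. A region of 781 bp at 95569683 to 95570463 had 61.6 in MeRIP 1 alone. The most upstream DICER1 region started 33342 bases from the upstream end of the span. In GRCh38.p14 the hsa-miR-3173 sequences lie 20.03 to 20.07 kb from the upstream end of the gene, whose length there, 71.783 kb, is close to the 71.788 kb of the hg19 span.

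DROSHA, the nuclear ribonuclease, had no region in all 3 lists. Its region at 31495393 to 31495479 on chromosome 5, minus strand, scored 444 in MeRIP 2 and 932 in MeRIP 3 and was missing from MeRIP 1. The peak of MeRIP 2 was 87 bp wide, but that of MeRIP 3 held only 3 bp, from 31495477 to 31495479. Only 16 of the 61147 peaks of the series were under 10 bp, and this one had the highest score of them. A region of 93 bp at 31521230 to 31521322 had 63.4 in MeRIP 1 and 54.4 in MeRIP 2, near the lowest score of 50. The remaining one, 834 bp at 31526186 to 31527019, had 124 in MeRIP 1 alone. All 3 lay in the upstream part of the gene, and the last 94793 bases of the span held no peak.

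DGCR8, the partner of DROSHA, had a single region, and its score differed most between lists of all members. At 20097548 to 20099400 on chromosome 22, plus strand, a peak of 1853 bp with identical edges had 3 unequal scores, 2589 (MeRIP 1), 2069 (MeRIP 2) and 224 (MeRIP 3). The mean was 10.05 ± 1.95 on the log2 scale, and MeRIP 3 alone was low: without it the ratio of the 2 scores was 1.25. The ratio of 11.5 was matched or passed by 122 of 11131 regions of the series below the ceiling (1.10%). Of the 17 member regions in all 3 lists below the ceiling, DGCR8 was the only one over 10-fold apart (series 1.61%). The region ends at the last base of the span and starts 29798 bases from its upstream end. The 3 microRNA sequences shown above lie 5.56 to 5.87 kb from the upstream end of DGCR8 in GRCh38.p14, where the gene measures 31.632 kb against 31.651 kb for the span. No list has a peak in that upstream part.

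CNOT1, the scaffold of the deadenylase, had 1 narrow region in a gene of 109.9 kb. It lay at 58663632 to 58663790 on chromosome 16, minus strand, and started at the first base of the span. The peak of 159 bp had identical edges and scored 969, 544 and 494 in MeRIP 1, 2 and 3, or 9.32 ± 0.53 on the log2 scale. MeRIP 1 was the highest, by a ratio of 1.96 to MeRIP 3. The other 109782 bases of the span held no listed peak, and the peak covered 0.145% of the span. As a mean over the lists that was the lowest share of the 9 genes, and DGCR8 had the highest, 5.85%. In single lists the order differed: DROSHA had fewer covered bases than 0.145% of its span in MeRIP 2 and MeRIP 3, with 180 bp and 3 bp, and TNRC6C had a larger covered share than DGCR8 in MeRIP 1, with 6505 bp. These shares depend on span length, and DGCR8 has the shortest span, 31.7 kb. In mean covered bases CNOT1 was again the lowest, but TNRC6C was the highest, with 4552 bp against 1853 bp in DGCR8.

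**Figure D4:**
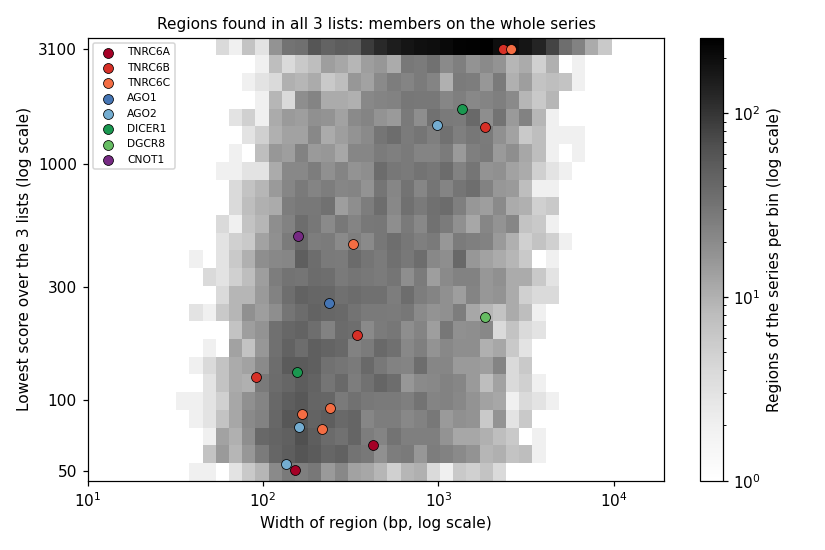
Width in bp (horizontal, log axis) and lowest score over the 3 lists (vertical, log axis) of regions found in all 3 lists. Grey shows how many regions of the series fall in each bin and coloured points are the 20 member regions. The 3 TNRC6 points at 3100 overlap because their widths are close, and DGCR8 lies low for its width of 1853 bp.

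Along the strand, regions were found at both ends of these spans. In steps of 20% of the span, from upstream to downstream, 7, 5, 4, 11 and 11 of the 38 regions had their centre there, and 3, 2, 3, 5 and 7 of the 20 in all 3 lists. The last 20% held regions of 5 genes: TNRC6B, TNRC6C, AGO2, DICER1 and DGCR8. AGO2 held more of them than any other gene, and those of AGO2 in 1 list scored only 54.7 and 88.1. The first 20% held the only recurrent region of AGO1 and of CNOT1. Spans of the rule were drawn with earlier results known, and span ends equal peak edges in DGCR8, CNOT1 and AGO2, so a position at the very end is in part set by the span. No hg19 annotation was used, so these shares are of genomic length, introns included, and the same counts over the series were not made.

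Scores of many regions differed between lists. Of the 17 member regions in all 3 lists and below the ceiling, 8 had scores within 2-fold of one another (series 52.4%). Compared with MeRIP 1, the median log2 ratio of scores was 0.07 in MeRIP 2 and -0.09 in MeRIP 3, and from MeRIP 2 to MeRIP 3 it was -0.04. The same medians over the series were -0.15, -0.04 and 0.12. Across the 17 regions these ratios had SDs of 1.01, 1.37 and 1.10, against 1.01, 1.04 and 0.94 over the series. No list was highest throughout: MeRIP 2 was above MeRIP 1 in 9 of the 17 regions and MeRIP 3 above MeRIP 1 in 8. MeRIP 3 was above MeRIP 2 in 6 of the 17, while in the series it was above in 6300 of 11131. The regions in question are few, and those of 1 gene are not independent.

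Numbers in the peak names show that other peaks were called between some of the listed ones. In each list the numbers rise along each chromosome without exception, so a skipped number between 2 listed peaks stands for a peak called there on either strand. Skipped numbers were common throughout the series, where 22.0%, 26.6% and 26.7% of the numbers were listed in MeRIP 1, 2 and 3. In MeRIP 1, 13 of the 18 numbers from the first to the last peak of TNRC6B were skipped. The same count was 12 of 20 in TNRC6C and 4 of 11 in AGO2. In MeRIP 2 these were 4 of 9, 2 of 7 and 9 of 13, and in MeRIP 3 they were 6 of 11, 3 of 9 and 11 of 15. DICER1, with 3 peaks in each list, had none in any list, and TNRC6A and DROSHA had 1 each, in MeRIP 2. AGO1 had none in MeRIP 1. A gene with 1 peak in a list, as AGO1 in MeRIP 2 and 3, DROSHA in MeRIP 3, and DGCR8 and CNOT1 in every list, can show no skipped number there. The names of the lists call them mRNA lists, but the labels do not state by what rule peaks were chosen or left out.

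**Figure D5:**
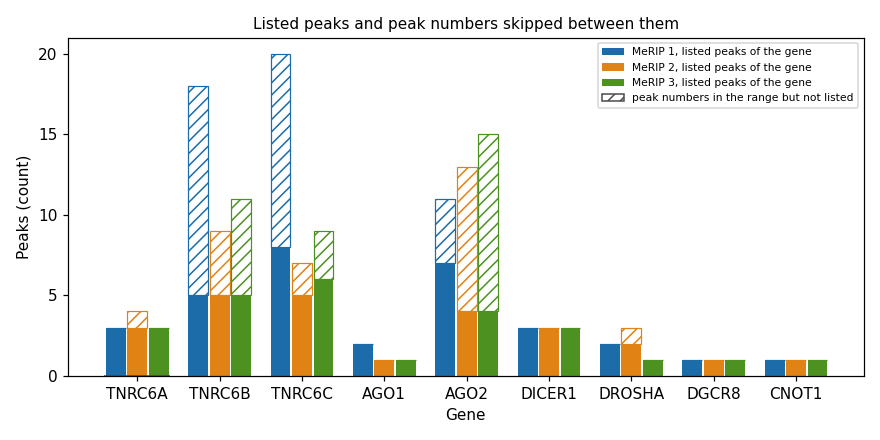
Listed peaks of each gene (filled bars) and peak numbers skipped between its first and last listed peak (hatched bars), by list. TNRC6B and TNRC6C have most skipped numbers in MeRIP 1 (13 and 12) and AGO2 in MeRIP 3 (11). DICER1, with 3 peaks in each list, has none. Over the whole series, 22.0%, 26.6% and 26.7% of the numbers were listed in MeRIP 1, 2 and 3.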

How the data were processed

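The members and lists were chosen with earlier results of these data known. The build was hg19, and the tools named were HISAT2 2.0.4 and cutadapt 1.9.3, per the submitters' processing notes. Peak names carry the word MACS, per the deposited lists, with no version or settings stated. The authors deposited 1 list per repeat, each tied by the labels to an IP and its input, with a score per peak and no header. Scores above the ceiling of 3100 were set to it before taking log2 or ratios.

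Peaks were assigned by their centre and strand to the spans given in the rule and merged across lists (at least 1 bp, same strand). A region's score in a list is its highest peak. Identical edges means equal start and end to the base, with 1 peak per list. All 9 genes were named; for genes of over 4 regions, the named regions were those with the highest lowest score, the widest, the outermost and the most uneven, and others were added after their values were seen. No test was made, since the study has 1 cell type and no contrast. The shares of regions in 3, 2 and 1 lists carry 95% Wilson intervals; other counts are given as they are. Merging and assignment were tested on simulated data. Lists of other microRNA pathway genes were not analysed here, because no hg19 positions were used for them. MicroRNA sequences are from RefSeq (GRCh38.p14), where all 9 members matched by symbol. Tools were SciPy 1.17.1, pandas 2.3.3, NumPy 2.4.6 and Matplotlib 3.10.9 under Python 3.11.15.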

Additional observations from a re-analysis of the deposited data

How the results depend on the processing

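Of 57 values under alternatives, all planned, 47 stayed within 1.5 times the main count or 1 SD of the main median. Part of the 47 could hardly move: no opposite-strand peak had its centre in a span, and ignoring the strand left every value unchanged. Merging peaks within 100 bp also changed none. No paired analysis was possible because the lists hold peaks of IP over input and no separate values for the libraries of a repeat. With peaks below their list's median score left out, 8 regions were in all 3 lists in place of 20, 6 had identical edges in place of 18, 4 lay in the last 20% of the span in place of 11, and 5 had scores within 2-fold in place of 8. The median log2 score was then 10.83 and the median width 1144 bp. With peaks of at most 1000 bp the 3 TNRC6 regions at the ceiling are left out, so 0 remained, and the medians were 7.22 and 175.5 bp. Leaving out 1 repeat gave 21 to 22 recurrent regions. A region then has to be in 2 lists and not 3, so this count could hardly fall and says little on recurrence. The count within 2-fold was 14 without MeRIP 1, 11 without MeRIP 2 and 12 without MeRIP 3, where 2 lists and not 3 have to be close. The depth of the libraries is not known from these lists, and the absence of a peak is no sign of absent m6A.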

Other observations

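AGO1 has 2 other Argonaute genes as neighbours, AGO4 upstream and AGO3 downstream, in the gene table of GRCh38.p14. The nearest plus-strand region upstream of the AGO1 span was 26.3 kb away on chromosome 1 at 36320105 to 36322538 (hg19). It was 2434 bp wide and in all 3 lists, with 972 in MeRIP 1, 63.1 in MeRIP 2 and 103 in MeRIP 3, so MeRIP 1 stood far above the other lists. The nearest one downstream was 126.0 kb away at 36521238 to 36521688, with 51.8 in MeRIP 1 and 169 in MeRIP 2 and no peak in MeRIP 3. These regions were not assigned to a gene, since no hg19 annotation was used.

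For some genes the span is shorter than the gene in the RefSeq table of the other build: 97.9 kb against 216.0 kb for TNRC6A, 104.6 kb against 151.3 kb for TNRC6C, 104.4 kb against 122.2 kb for AGO2 and 46.4 kb against 60.8 kb for AGO1. The nearest same-strand region upstream of the TNRC6A span was 156.9 kb away, and that of AGO2 29.4 kb away.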
